A study of Mus musculus with 4 samples.

Results

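Vip interneurons were taken from single-cell RNA sequencing of the mouse prefrontal cortex at postnatal days 1, 4 and 10 (P1, P4 and P10) and in adults (postnatal day 84), with 1 library at each age. A cell was kept when it held at least 1000 unique molecular identifiers (UMIs, 1 for each captured RNA molecule) and 1000 genes and no more than 15% mitochondrial UMIs. It was counted as a Vip cell when Gad1 and Gad2 summed to 2 or more UMIs per 10000, Vip was at 2 or more per 10000, at least 1 Adarb2 UMI was present and Lhx6 was absent. Of 59918 cells kept, 739 met this rule, namely 40 (P1), 192 (P4), 248 (P10) and 259 (Adult). The mice were C57BL/6J (C57BL/6 in the labels) without any transgene or treatment named. All 4 groups shared the same preparation, a dissection in ice-cold fluid holding the transcription inhibitor Actinomycin D followed by digestion with protease and papain. By the methods, every animal was female and 2 were used at each age, and how they were joined into a library is not given in the sources used here. No cell could be assigned to a mouse, so each age stood as 1 sample, no test between ages was possible, and the intervals below cover counting error only.

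Vip interneurons are inhibitory neurons of the upper cortical layers that arise in the caudal ganglionic eminence and reach the cortex around birth. They release GABA together with vasoactive intestinal peptide, and many of them synapse on other interneurons, above all on Sst cells, so that their firing releases pyramidal neurons from inhibition. Adult Vip cells are usually divided into bipolar cells that hold the calcium-binding protein calretinin (Calb2) and often make acetylcholine, and basket cells that hold cholecystokinin (Cck) and cannabinoid receptors. Adarb2, an RNA-binding protein of the ADAR family, marks interneurons of caudal origin, while Lhx6 is the transcription factor of interneurons from the medial ganglionic eminence.

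Markers that the rule did not use were checked first. Prox1, a transcription factor that guides the migration and maturation of caudal interneurons, had 1971 CPM at P1, 1295 (P4), 972 (P10) and 545 CPM in adult cells (CPM, UMIs of a gene scaled to the same total in each library, summed over the Vip cells of a library without mitochondrial and ribosomal protein genes). In Sst cells of the same libraries it was at 2.71, 5.19, 1.17 and 2.04 CPM, so the ranges did not overlap. The vesicular GABA transporter Slc32a1 stood at 249.6, 219, 423 and 490.5 CPM, and the serotonin-gated channel Htr3a, a marker of caudal interneurons, at 181, 98.6, 209 and 403 CPM. Vip itself was at 0.035, 0.509, 1.56 and 6.27 CPM in glutamatergic cells, a class that should lack it. Lhx6 was at 0 by rule, and the summed markers of medial interneurons were at 688, 725, 716 and 458 CPM in Vip cells, of which 589, 603, 559 and 269 CPM came from Elfn1, which Vip cells are known to express.

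Depth differed between ages and did not follow them in order. Vip cells had median UMIs of 16750.5 (P1), 7796 (P4), 14166.5 (P10) and 10356 (Adult), and their summed UMIs were 710057, 1812566, 3912389 and 3088694. A floor of 3 UMIs thus equalled 4.57, 1.8, 0.823 and 1.04 CPM from the youngest to the oldest library. By its header the P1 file was made with a later version of the authors' pipeline and with intronic reads kept, while the headers of the other 3 name an earlier version and give no intron setting. Between P1 and the later libraries, age and processing therefore cannot be told apart, whereas P4, P10 and Adult form a series with like headers. Scrublet, which scores likely doublets, marked 1, 29, 24 and 41 Vip cells, and these were retained. They were 2.5, 15.1, 9.68 and 15.8% of the Vip cells, against 5.11, 9.41, 6.91 and 7.82% of all kept cells. The marked share was thus higher in Vip cells than in all kept cells at P4, P10 and Adult and lower at P1. No Vip cell barcode occurred in more than 1 library. Among all kept cells, P4 and P10 shared 323 barcodes, P4 and Adult 316 and P10 and Adult 256. P1 shared 14 with P4, 20 with P10 and 10 with Adult. The Vip cells are few beside all kept cells, so the absence among them says little. Y-linked genes summed to 68.5 CPM in the P1 Vip cells and to 0, 0.274 and 0 at the later ages, although the methods name female animals only. In the other classes of the P1 library they were at 114 to 153 CPM. Age, processing and this difference in Y-linked RNA therefore cannot be told apart between P1 and the later libraries. Summed markers of other cell types in the Vip cells went from 18.3 CPM at P1 to 141, 161 and 840 in Adult for oligodendrocytes, from 448 to 496, 1069 and 1315 for astrocytes, from 382 to 873, 903 and 1205 for glutamatergic neurons, and were 10.7, 1.8, 25 and 318 for microglia. They were 13.7, 43.9, 48.3 and 227 CPM for vascular cells and 85.2, 190, 286 and 530 for Lamp5 interneurons. Hemoglobin genes summed to 12.2, 228, 29.1 and 44 CPM in Vip cells, highest at P4, where Sst cells had 14.5 and glutamatergic cells 75.2. The part of these markers in the differences between ages was not tested.

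GABAergic cells were all kept cells with Gad1 and Gad2 summing to 2 or more UMIs per 10000. Cells of other types can be among them. Vip cells made up 2.18% of GABAergic cells at P1 (40 of 1839, 95% Clopper-Pearson interval 1.56 to 2.95%), 5.79% at P4 (192 of 3314, 5.02 to 6.64%), 8.55% at P10 (248 of 2900, 7.56 to 9.63%) and 8.94% in Adult (259 of 2896, 7.93 to 10%). The P1 and P4 intervals stood apart from each other and from those of the later ages, whereas P10 and Adult overlapped. With 1 library at each age and counting error only, overlap of intervals is no test between ages. With a threshold of 5 Vip UMIs per 10000 the P1 share was 0.979%. When cells with 20 or more UMIs per 10000 of other types' markers were left out, the adult share was 15% (183 of 1217, 13.1 to 17.2%). The P10 share was then 10.7% (205 of 1910, 9.38 to 12.2%), so under this alternative the P10 and Adult intervals did not overlap. This limit took the denominator from 2896 to 1217 in Adult and from 1839 to 1613 at P1. The part of other cell types in the shares was not tested. Among cells with Adarb2 and without Lhx6, the share above the Vip threshold was 9.35% of 428, 25.4% of 756, 34.6% of 717 and 48.5% of 534. Because membership asks for Vip and the level of Vip differed with age, a smaller share at P1 cannot be told apart from less Vip RNA in each cell.

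The level of Vip in the member cells had medians of 3.87, 8.47, 29.1 and 94.6 UMIs per 10000 from P1 to Adult. The highest cells reached 14.3, 53.6, 94.6 and 313. The P1 cells thus lay close to the threshold of 2 per 10000 and the adult cells far above it. Just inside the threshold, between 2 and 3 per 10000, lay 14, 19, 11 and 4 cells with medians of 2.42, 2.51, 2.69 and 2.67. Just outside, between 1 and 2 per 10000, lay 13, 36, 6 and 4 cells that met the other conditions, with medians of 1.53, 1.40, 1.40 and 1.51. At P1, 14 of the 40 members thus lay within 1 UMI per 10000 of the threshold, and in Adult 4 of 259 did. Cells with enough Vip that failed on Adarb2 alone numbered 0, 3, 24 and 78, those that failed on Lhx6 alone 1, 14, 15 and 7, and those that failed on Gad1 and Gad2 alone 0, 12, 6 and 4. The Adarb2 condition therefore left out more adult cells than cells of any other age.

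**Figure D1:**
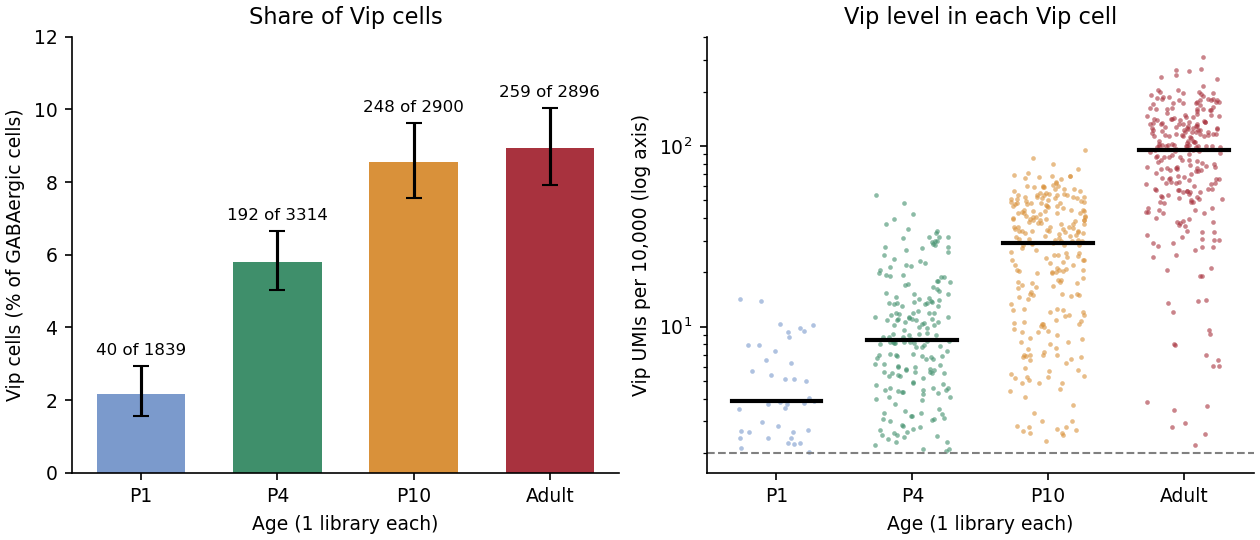
The left panel shows Vip cells as a percentage of GABAergic cells at each age (bars start at 0, error bars are 95% Clopper-Pearson intervals, 1 library each) and the right panel shows Vip UMIs per 10000 in each Vip cell on a log axis, with the median as a black line and the threshold of 2 as a dashed line. The share goes from 2.18% at P1 to 8.94% in Adult and the median level from 3.87 to 94.6.

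Summed over all member cells, Vip stood at 569 CPM at P1, 1189 (P4), 3124 (P10) and 9957 CPM in adult cells, which describes the gene that chose the cells. With each cell reduced to 2000 UMIs drawn at random, which left out no Vip cell, 0, 54, 88 and 142 shallower glutamatergic cells and 0, 2, 23 and 19 microglia, a Vip UMI was found in 60, 83.9, 92.7 and 97.3% of Vip cells at the 4 ages against 0, 0.136, 0.308 and 1.36% of glutamatergic cells (median UMIs 27801, 13875, 21358.5 and 14380.5), and at full depth in 100% of Vip cells by rule and 0.0865, 0.628, 2.38 and 7.13% of glutamatergic cells. The upstream sequences of Vip and of Cck, the peptide gene outside the rule with the largest ratio between P4 and Adult, are shown because both genes carry the letters TGACG, the core of the cAMP response element through which CREB acts, near their start. The 250 bases before each RefSeq start (GRCm38.p6) are printed in the direction of the gene, Vip from chr10:5638968-5639217 on the plus strand and Cck from chr9:121495695-121495944 on the minus strand, with each occurrence of the letters on either strand (TGACG or CGTCA) in capitals.
Vip: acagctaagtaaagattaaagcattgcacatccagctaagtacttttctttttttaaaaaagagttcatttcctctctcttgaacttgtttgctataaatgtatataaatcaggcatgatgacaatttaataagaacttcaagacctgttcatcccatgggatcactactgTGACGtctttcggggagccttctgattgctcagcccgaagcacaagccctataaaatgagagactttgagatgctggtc
Cck: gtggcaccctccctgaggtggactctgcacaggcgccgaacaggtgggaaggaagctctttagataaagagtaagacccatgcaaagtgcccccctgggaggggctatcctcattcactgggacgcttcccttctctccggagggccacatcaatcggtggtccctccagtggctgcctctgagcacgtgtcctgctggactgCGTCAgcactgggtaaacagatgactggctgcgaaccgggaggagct
The capitals begin 79 bases before the Vip start and 47 before the Cck start. Of 32851 mouse promoters of RefSeq, 5836 (17.8%) hold the letters on at least 1 strand and 508 (1.55%) hold the full palindrome TGACGTCA, so a match is common and describes the sequence only. Of 3 further peptide promoters searched, Sst holds the letters on both strands, as the palindrome, and Tac2 and Npy do not hold them.

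The other peptides and secreted factors were not used by the rule. Of 19 listed genes besides Vip, 11 had a mean of at least 10 CPM over the ages, a limit that a gene can pass through 1 high age. Between P4 and Adult 7 of these were 2-fold or more higher and 1 lower, against 12.4% and 14.7% of all 9386 genes compared. Their median log2 ratio was 2.14, with -0.14 over all genes. Cck, a peptide of basket-type interneurons and of pyramidal cells, had 36.5 CPM at P1, 134 (P4), 545 (P10) and 2250.5 CPM in adult cells (log2 4.07, 95% counting interval 3.88 to 4.27). Its lowest age and its highest differed by 61.6-fold, and each age stood above the one before. Penk, the precursor of enkephalins, had 10.7 CPM at P1, 82.3 (P4), 428 (P10) and 1040.2 CPM in adult cells (log2 3.66, 3.41 to 3.92). It stood at 4.62, 4.51, 10.3 and 43.4 CPM in glutamatergic cells, below the Vip cells at each age. Tac2, the precursor of neurokinin B, had 137 CPM at P1, 260.2 (P4), 1374 (P10) and 1936 CPM in adult cells (log2 2.90, 2.75 to 3.04). Its largest step lay between P4 and P10, as it did for Cxcl14, a chemokine of caudal interneurons, with 234 CPM at P1, 290.3 (P4), 2135 (P10) and 1805 CPM in adult cells.

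Pthlh, a hormone related to parathyroid hormone, stood at 7.61, 30, 78.4 and 132 CPM in the order of the libraries. Npy, the neuropeptide of neurogliaform and many Sst cells, was at 3.04, 98, 85.6 and 295 CPM, and Sst itself at 7.61, 14.4, 61.4 and 66.9 CPM. In Sst cells these were at 1028, 1463, 1842 and 2732 CPM for Npy and at 3387, 4275, 9383 and 15539 for Sst, a gene by which those cells were chosen. Crh, the stress hormone releasing factor that Vip bipolar cells are known to make, stood at 426, 342, 498 and 436 CPM. Igf1, a growth factor that sensory experience is known to induce in Vip cells, stood at 616, 615, 1067 and 499 CPM, highest at P10 and lower in Adult (log2 -1.10 over P10). Grp, gastrin-releasing peptide, was the member past 2-fold in the other direction, with 13.7, 37.3, 21.4 and 13.9 CPM. Cort, Pdyn, Tac1, Cartpt, Nts, Adcyap1, Crhbp and Nmb lay under the expression limit.

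The peptides were also counted for each step between ages, and the difference between steps was not tested. From P4 to P10, 6 of the 11 peptides were 2-fold or more higher and 0 lower, against 6.06% and 3.62% of all genes, and the named 6 were Cxcl14, Tac2, Penk, Sst, Cck and Pthlh. From P10 to Adult, 3 were higher (Cck, Npy and Penk) and 1 lower (Igf1), against 5.2% and 7.2%. From P1 to P4, where the headers differ, 5 were higher (Npy, Penk, Pthlh, Cck and Grp) and 0 lower, against 10.6% and 6.4%. Of these, Pthlh turned to log2 -1.34 with cells reduced to 2000 UMIs and Grp to -0.48 with the threshold of 5 Vip UMIs. For ratios on reduced counts members were chosen again on those counts, which gave 23 Vip cells at P1 and 117 at P4. The Pthlh value therefore rests on very few UMIs. The shares of cells that follow keep all members. With cells reduced to 2000 UMIs, a Penk UMI was found in 5, 9.9, 33.5 and 50.2% of Vip cells (10, 29.7, 62.5 and 61.8% at full depth), and a Tac2 UMI in 12.5, 18.8, 48 and 50.6% (47.5, 34.4, 58.1 and 57.1%). Glutamatergic cells reduced in the same way gave 0.877, 0.806, 1.7 and 4.29% for Penk and 0.0865, 0.0559, 0.334 and 0.447% for Tac2. For Cck the shares were 2.5, 13.5, 34.7 and 59.1% (22.5, 31.8, 66.9 and 85.3%), but microglia, which should lack it, gave 2.86, 4.94, 22.7 and 40% and glutamatergic cells 11.1, 20.3, 50.1 and 64.5%. The Cck share of Vip cells lay under or near the microglial one at P1 and above it at the later ages.

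**Figure D2:**
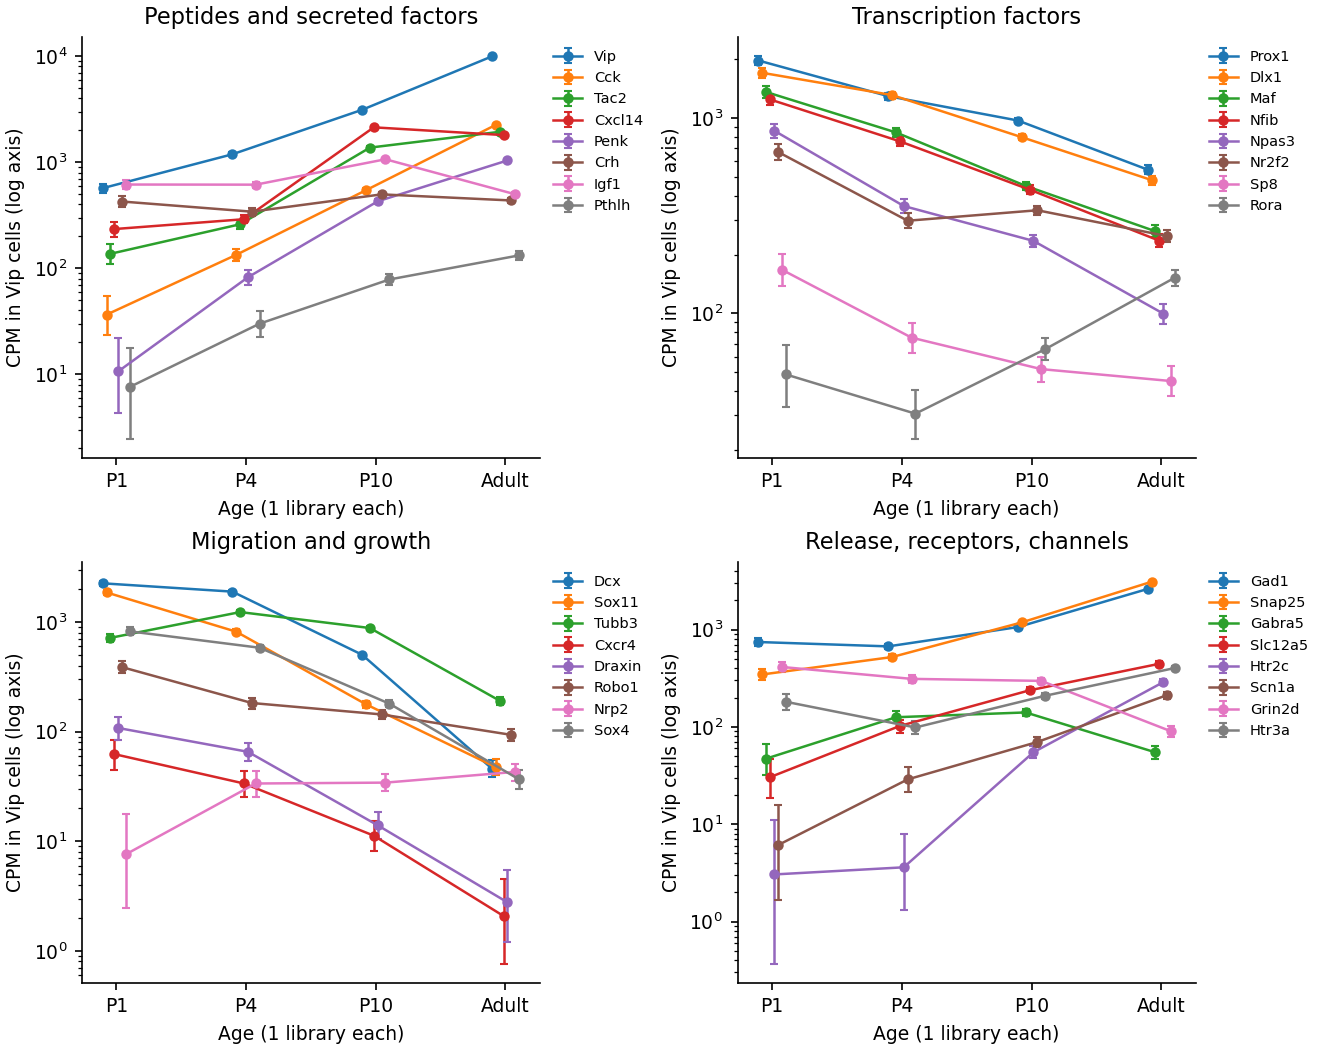
Each panel plots the CPM of 8 genes in Vip cells at P1, P4, P10 and Adult on a log axis, with lines joining the ages and error bars giving 95% Poisson counting intervals (1 library each). Among peptides Cck goes from 36.5 to 2250.5 CPM while Crh stays between 342 and 498, and in the migration panel Dcx goes from 2260.3 to 46.1.

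Genes that mark kinds of adult Vip cells were taken as a second list. Of 30, 20 passed the expression limit, and between P4 and Adult 11 were 2-fold or more higher and 1 lower, with a median log2 ratio of 1.93 (12.4% and 14.7% of all genes). The list gave 5 higher and 5 lower (median 0.28) in Adarb2 cells without Vip, 12 and 3 (1.62) in Sst cells and 9 and 5 (0.90) in glutamatergic cells. All genes had 12.1% and 16.8%, 10.8% and 15.4%, and 13.7% and 16% in these classes in turn. The 11 in Vip cells were Mybpc1, Gpc3, Parm1, Cck, Tnfaip8l3, Penk, Cxcl14, Pcdh11x, Npy2r, Htr3a and Synpr, of which Cck, Penk and Cxcl14 also stand in the peptide list. Parm1, a transmembrane mucin-like protein, had 1.52 CPM at P1, 17.4 (P4), 49.6 (P10) and 353 CPM in adult cells. It held 1 UMI at P1 and was higher at every later age, by log2 2.83 between P10 and Adult. Synpr, a synaptic vesicle protein, had 568, 522, 1171 and 1863 CPM. Npy2r, a receptor for neuropeptide Y, was at 7.61, 67.3, 216 and 279 CPM. Lmo1, a LIM-only transcription cofactor, was the gene lower in Adult, with 65.5, 67.9, 25.8 and 3.81 CPM. Calb2 and the cannabinoid receptor Cnr1 differed by less than 2-fold between P4 and Adult, at 350.1, 403, 834 and 521 CPM for Calb2 and 2621, 1600.3, 1952 and 2981 CPM for Cnr1. Slc17a8, Chat, Pde11a, Serpinf1, Igfbp6, Sncg, Krt73, Rspo1, Rspo4 and C1ql1 did not reach the limit.

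Calb2 divided the Vip cells at each age. Cells with 2 or more Calb2 UMIs per 10000 numbered 17, 98, 137 and 135, which was 42.5, 51.0, 55.2 and 52.1% of the Vip cells, and 13, 63, 74 and 96 cells had none, with the remaining 10, 31, 37 and 28 in between. In cells reduced to 2000 UMIs, Calb2 was found in 40, 40.1, 47.6 and 44% of Vip cells and 2.09, 1.98, 2.33 and 0.679% of glutamatergic cells. The cells without Calb2 were shallower in the early libraries, with median UMIs of 12421, 6707, 12860 and 10166.5 against 17265, 8680.5, 15080 and 10130, and the part of depth in the split was not tested. The P1 groups were too small to compare by gene.

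At P4, P10 and Adult, 20 genes were 2-fold or more higher in Calb2 cells in all 3 libraries and 15 lower, which is 0.213% and 0.16% of 9380 compared. The split was 20 and 22 without Scrublet-marked cells, 19 and 26 without cells high in other types' markers and 20 and 33 with members chosen on reduced counts. Slc5a7, the choline transporter that supplies acetylcholine synthesis, had 90.8 against 30.7 CPM (P4), 154 against 43.8 (P10) and 218 against 26.6 CPM (Adult). The difference was widest in Adult (log2 3.03, 2.48 to 3.64). Sfrp2, a secreted modulator of Wnt signals, led the list with 169 against 46 CPM (P4), 101 against 24 (P10) and 46 against 7.35 CPM (Adult). Rspo2, which strengthens Wnt signals, had 135 against 39.4 CPM (P4), 67.7 against 14.6 (P10) and 66.9 against 23.9 CPM (Adult). Both Wnt modulators were lower in Adult than at P4 in the Calb2 cells and kept their excess over the other cells. Vwc2, a secreted antagonist of bone morphogenetic proteins, had 97.8 against 26.3 CPM (P4), 206 against 44.8 (P10) and 162 against 67.9 CPM (Adult), and Cbln4, a synaptic organiser, had 18.6 against 6.57 CPM (P4), 53.7 against 11.5 (P10) and 54.7 against 23 CPM (Adult). Ccnd1, Aebp1, Ackr3, Ostf1 and Rag1 completed the 10 most different genes on this side, with smallest log2 ratios between 1.26 and 1.8.

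On the other side, Cxcl14 had 73.4 against 697 CPM (P4), 652 against 4563 (P10) and 834 against 3277 CPM (Adult). The groups were apart at each age by at least log2 1.98, the adult value. Reln, the extracellular glycoprotein reelin, had 46.6 against 173 CPM (P4), 53.7 against 307 (P10) and 45.3 against 204 CPM (Adult). Col19a1, a collagen of interneurons, had 4.66 against 21.9 CPM (P4), 8.22 against 93.9 (P10) and 8.63 against 46.8 CPM (Adult), and Cadps2, a factor of dense-core vesicle release, had 18.6 against 39.4 CPM (P4), 40.6 against 301 (P10) and 120.1 against 658 CPM (Adult). For Cadps2 the P4 difference was small beside the later ones. Eln, Trpm3, Mbnl3, Stxbp6, Fosl2 and Pdzrn3 were the rest of the 10 genes furthest below, out of 15 on this side, some at under 10 CPM in both groups of a library.

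The difference in Cck was wider after P4. Its level was 119 against 167 CPM (P4), 218 against 1153 (P10) and 781 against 4409 CPM (Adult), a log2 ratio of -0.49 (-0.93 to -0.04) at P4 and -2.41 and -2.50 thereafter. Cells at 2 or more Cck UMIs per 10000 made up 17.3% of Calb2 cells and 14.9% of all other Vip cells, those in between included, at P4. The shares were 16.8 and 57.7% at P10 and then 57.0 and 72.6% in Adult, when Cck was also found in most glutamatergic cells. Cnr1, which basket cells use to sense cannabinoids, had 1413 against 2143 CPM (P4), 1063 against 3738 (P10) and 1917 against 4735 CPM (Adult), and Htr3a had 64.1 against 129 CPM (P4), 127 against 288 (P10) and 284 against 657 CPM (Adult). Both were lower in Calb2 cells at all 3 ages. Tac2 had 96.7 against 462 CPM (P4), 747 against 2276 (P10) and 1587 against 2809 CPM (Adult), so its difference narrowed with age. Penk went the other way with 92 against 57 CPM (P4), 615 against 155 (P10) and 1365 against 737 CPM (Adult), as did Pthlh with 45.4 against 8.76 CPM (P4), 109.8 against 33.4 (P10) and 182 against 88.1 CPM (Adult). The Vip level itself, which the rule used, was 1378 against 879 CPM (P4), 3826 against 2136 (P10) and 11268 against 9249.7 CPM (Adult).

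**Figure D3:**
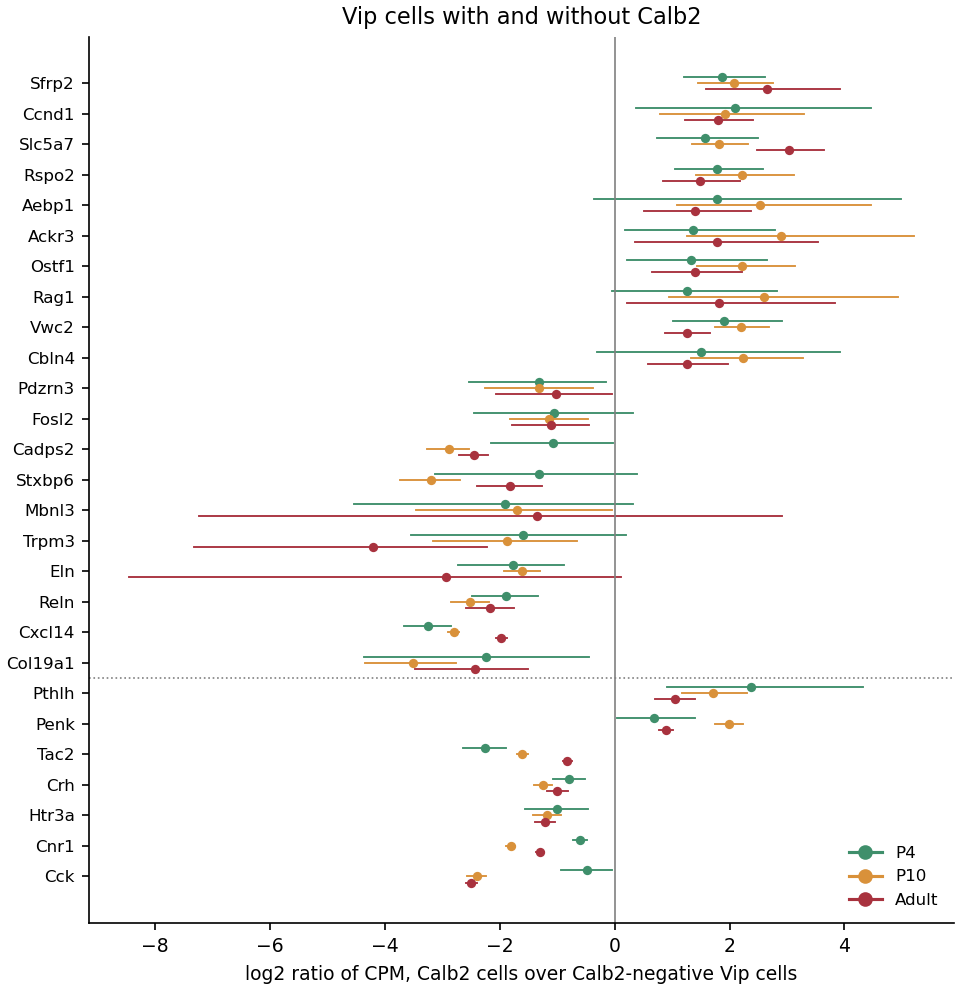
Log2 ratio of CPM in Calb2 cells over Vip cells without Calb2 at P4, P10 and Adult, with lines giving 95% counting intervals, for the 10 genes furthest above and the 10 furthest below and, under the dotted line, other genes from the fixed lists. Sfrp2, Slc5a7 and Penk lie to the right of 0 at all 3 ages and Cxcl14, Reln and Cnr1 to the left, while Cck lies closer to 0 at P4 (-0.49) and far left in Adult (-2.50).

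Vip cells carried GABA genes at every age. Gad1 and Gad2, the enzymes that make GABA and that the rule used, stood at 744, 671, 1059.8 and 2613 CPM and at 274, 184, 753 and 1498 CPM from the youngest to the oldest library. The list of GABA synthesis and transport held 8 other genes, 1 of which, Ache, degrades acetylcholine and is no GABA gene. Of the remaining 7, 3 (Abat, Slc32a1 and Aldh5a1) were 2-fold or more higher in Adult than at P4 and 0 lower, against 12.4% and 14.7% of all genes. From P10 to Adult 0 of the 8 genes passed 2-fold, against 5.2% of all genes higher and 7.2% lower. In so short a list this count lay near the background. Abat, which breaks down GABA, had 104 CPM at P1, 103 (P4), 284 (P10) and 297 CPM in adult cells (log2 1.52, 1.28 to 1.77). Slc32a1, which loads vesicles, had log2 1.16 over the same ages. Ache had 7.61, 51.1, 232 and 164 CPM. The chloride exporter Slc12a5, whose appearance is known to turn GABA from depolarising to inhibitory, had 30.4 CPM at P1, 102 (P4), 237 (P10) and 445 CPM in adult cells (log2 2.12, 1.89 to 2.36). It was higher at each later age, while the chloride importer Slc12a2 stayed at 63.9, 57.1, 54.3 and 88.3 CPM.

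Of 25 genes of vesicle release, 22 were expressed, and 10 were 2-fold or more higher in Adult than at P4 and 0 lower, with a median log2 ratio of 0.92, against 12.4% and 14.7% of all genes. From P4 to P10 the count was 7 and 0 (6.06% and 3.62% of all genes), and from P10 to Adult 3 and 0 (5.2% and 7.2%). Snap25, a membrane fusion protein, had 346 CPM at P1, 522 (P4), 1184 (P10) and 3096 CPM in adult cells (log2 2.57, 2.47 to 2.67). Syt1, the calcium sensor of fast release, had 1123 CPM at P1, 1224 (P4), 2736 (P10) and 4267 CPM in adult cells. Vamp1, a vesicle fusion protein of fast-spiking and adult neurons, had 4.57, 13.2, 35.4 and 98.7 CPM. All 3 genes were lowest at P1 and highest in Adult. Syt2, Sv2c and Unc13c lay under the limit. The same list was 2-fold or more higher for 11 genes in glutamatergic cells (13.7% of all genes there), 10 in Sst cells (10.8%) and 12 in Adarb2 cells without Vip (12.1%), with 0 lower in each.

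Receptors differed by subunit. Of 13 expressed genes of the GABA-A receptor and inhibitory synapse, 6 were 2-fold or more higher in Adult than at P4 (among them Gabrb1, Gabra4, Gabra2 and Gabrb2) and 1 lower (Gabra5), with a median of 0.54. Over all genes 12.4% were higher and 14.7% lower, so the count of lower genes was no larger than the background. Gabra5, an extrasynaptic subunit of young neurons, had 47.2 CPM at P1, 126 (P4), 141 (P10) and 54.7 CPM in adult cells (log2 -1.20, -1.51 to -0.89). Gabra4, an alpha subunit of extrasynaptic receptors, had 10.7 CPM at P1, 38.5 (P4), 71.3 (P10) and 127 CPM in adult cells (log2 1.72, 1.33 to 2.13), and Gabrb2, a beta subunit, had 91.3, 69.7, 89.1 and 148 CPM.

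Among 19 expressed glutamate receptor genes, 6 were higher in Adult than at P4 (Grin2a, Gria3, Grm8, Gria1, Grik2 and Grin1) and 2 lower (Grin2d and Grik1), with a median of 0.42. Over all genes 12.4% were higher and 14.7% lower, so that the count of lower genes lay near the background. Grin2a, the NMDA receptor subunit of mature synapses, had 12.2 CPM at P1, 15.6 (P4), 42.5 (P10) and 124 CPM in adult cells (log2 2.99, 2.42 to 3.63). Grin2d, the slow subunit of young interneurons, had 412 CPM at P1, 311 (P4), 297 (P10) and 90.1 CPM in adult cells (log2 -1.79, -2.01 to -1.57). Grin2a was thus highest in Adult and Grin2d lowest. Grik1, a kainate receptor subunit, had 263, 124, 133 and 52 CPM. Gria3, an AMPA receptor subunit, had 1.52, 22.8, 58.1 and 140.3 CPM and held a single UMI at P1. Grin2a was at 29.7, 31.3, 117 and 414 CPM in glutamatergic cells at the same ages.

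Receptors for modulators made up a list of 28 genes, of which 15 were expressed. In Adult 9 were 2-fold or more higher than at P4 and 0 lower, with a median of 1.40 (12.4% and 14.7% of all genes). The same list in Sst cells gave 3 higher and 1 lower with a median of 0.38 (10.8% and 15.4% of all genes there). Htr2c, a serotonin receptor coupled to calcium release, had 3.04 CPM at P1, 3.61 (P4), 54.8 (P10) and 288 CPM in adult cells. It lay under the floor of 3 UMIs at P1 and rested on 6 UMIs at P4 and then differed by log2 3.93 (interval 2.78 to 5.39) and 2.39 over the next steps. In Sst cells Htr2c stood at 0.933, 3, 12.6 and 16.4 CPM and in glutamatergic cells at 1.32, 6.59, 39.4 and 58. Htr3a, the serotonin-gated channel, had 181, 98.6, 209 and 403 CPM and was lowest at P4. Its thinned share of cells, 32.5, 17.2, 22.2 and 31.3%, had the same lowest age, with 0.0371, 0.0878, 0.0936 and 0.0497% in glutamatergic cells. Chrm1, a muscarinic acetylcholine receptor, had 7.61, 16.8, 57 and 121 CPM, and Adra1b, a noradrenaline receptor, 132, 98, 301 and 317 CPM. Sstr2, Chrna7, Adra1a and Npy1r also passed 2-fold. The receptors for the cells' own peptide, Vipr1 and Vipr2, did not reach the expression limit.

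Of 31 expressed voltage-gated channel genes, 14 were 2-fold or more higher in Adult than at P4 and 0 lower, with a median of 0.81 (12.4% and 14.7% of all genes). In the step from P4 to P10, 11 were higher and 0 lower (6.06% and 3.62%), and from P10 to Adult 10 and 0 (5.2% and 7.2%). Scn1a, the sodium channel of interneuron axons, had 6.09 CPM at P1, 28.8 (P4), 69.9 (P10) and 212 CPM in adult cells (log2 2.88, 2.45 to 3.33). Scn2b, an auxiliary subunit, rested on 1 UMI at P1 and was at 1.52, 10.2, 61.7 and 272 CPM. It had the largest ratio of the list between P4 and Adult (log2 4.73, 4.05 to 5.52). Kcnc2, a potassium channel that allows fast repolarisation, had 50.2, 40.3, 84.5 and 244 CPM. Kcna1, a delayed rectifier of axons, had 0 UMIs at P1 and 9.01 CPM (P4), 18.9 (P10) and 56.5 CPM in adult cells. Each of these was highest in Adult. In glutamatergic cells 20 genes of the list were higher and 1 lower between the same ages, against 13.7% and 16% of all genes there, with a median of 1.16 against 0.81.

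Of 32 adhesion genes, 8 were 2-fold or more higher in Adult than at P4 and 1 (Cdh2) lower, with a median of 0.34 (12.4% and 14.7% of all genes). Cntnap2, which clusters potassium channels at the axon, had 184 CPM at P1, 153 (P4), 548 (P10) and 598 CPM in adult cells (log2 1.96, 1.77 to 2.16). Cntn1, a contactin, had 21.3, 222, 688 and 555 CPM, with its largest step from P1 to P4. Cdh2, N-cadherin, had 323, 315, 200.4 and 154 CPM. Erbb4, the neuregulin receptor through which interneurons receive excitatory synapses, had 2706 CPM at P1, 1171 (P4), 799.9 (P10) and 1152 CPM in adult cells. It was highest at P1 by more than 2-fold, and 12 of the 32 genes were lower at P4 than at P1 while 3 were higher, against 6.4% and 10.6% of all genes. The 12 include Nrg1, Nrg3, Tenm2, Nrxn3, Nlgn1 and Erbb4, which are long genes, and the headers of these libraries differ in what they state on introns, so that age and processing cannot be told apart for them.

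**Figure D4:**
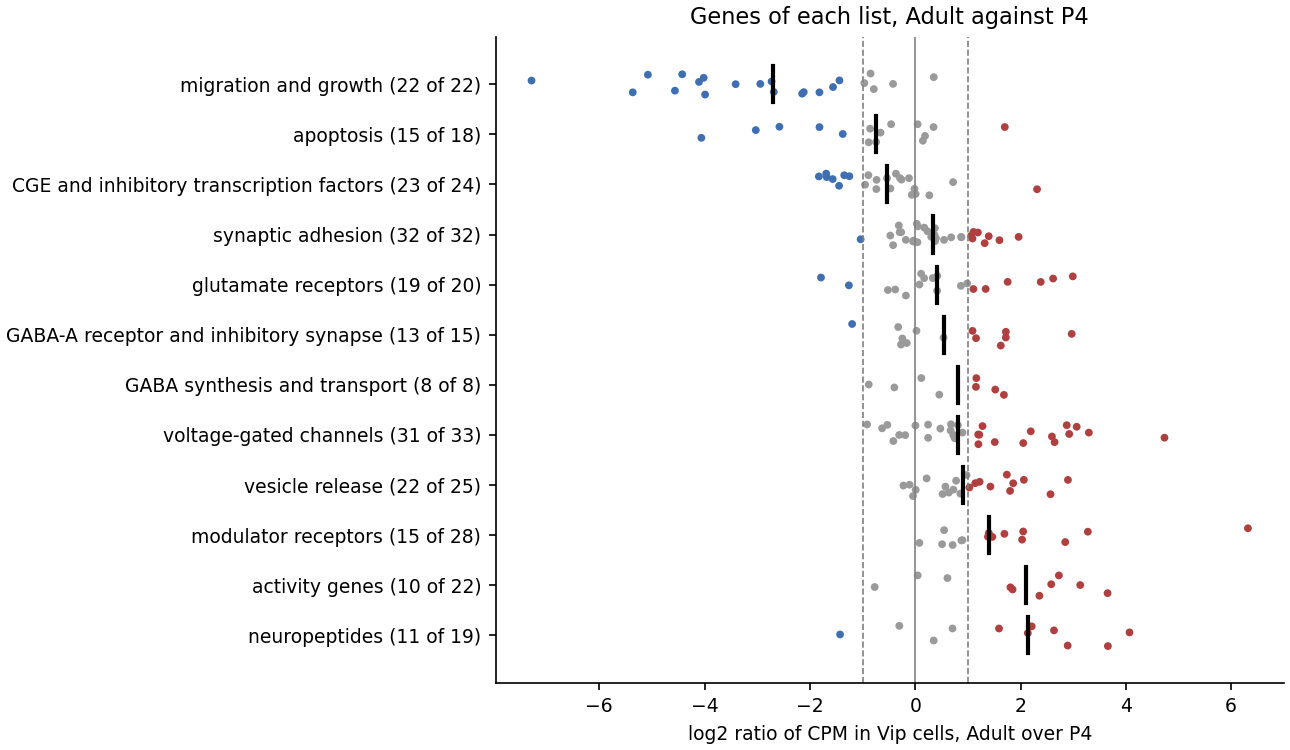
Each dot is a gene of a fixed list, placed by its log2 ratio of CPM in Vip cells, Adult over P4, with red dots at 2-fold or more higher, blue dots at 2-fold or more lower and a black bar at the list's median (the counts after each name are genes expressed of genes listed, and the GABA synthesis list includes Ache). Migration and growth genes have their median at -2.71 and neuropeptides at 2.14.

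Genes of migrating and growing neurons were the list with the lowest median between P4 and Adult, -2.71 on the log2 scale, with 0 of 22 genes higher and 17 lower, against 12.4% and 14.7% of all genes. From P4 to P10, 8 were lower (3.62% of all genes), and from P10 to Adult 16 (7.2%). Dcx, the microtubule protein of migrating neurons, had 2260.3 CPM at P1, 1898 (P4), 504 (P10) and 46.1 CPM in adult cells (log2 -5.36, -5.63 to -5.11). A Dcx UMI was found in 95, 96.4, 58.9 and 8.49% of Vip cells reduced to 2000 UMIs and in 93.9, 91, 50 and 7.91% of glutamatergic cells. Sox11, a transcription factor of immature neurons, had 1866 CPM at P1, 817 (P4), 178 (P10) and 47.5 CPM in adult cells. Tubb2b, a tubulin of growing axons, had 2461 CPM at P1, 2993 (P4), 1573 (P10) and 88.7 CPM in adult cells, with most of the difference after P10. Igfbpl1, a secreted protein of newborn neurons, had 224, 108, 16.2 and 0.693 CPM. Gap43, the growth cone protein, had 318 CPM at P1, 2507 (P4), 2893 (P10) and 849.7 CPM in adult cells and so was highest at P10. The other classes had medians of -2.51 in Sst cells, -3.00 in Adarb2 cells without Vip and -2.81 in glutamatergic cells.

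Of 23 expressed transcription factors of caudal and inhibitory neurons, 1 was 2-fold or more higher in Adult than at P4 (Rora) and 7 lower (among them Npas3, Nfib, Maf, Dlx1, Npas1 and Prox1), with a median of -0.54, against 12.4% and 14.7% of all genes. Prox1 had log2 -1.25, 95% counting interval -1.34 to -1.16, and its share of cells reduced to 2000 UMIs was 95, 89.1, 80.2 and 62.2% (100, 99.5, 98.8 and 93.4% at full depth), with 0.371, 0.367, 0.669 and 1.7% in reduced glutamatergic cells. Npas3, a basic helix-loop-helix factor, had 863, 355, 235 and 99.8 CPM, Nfib, a nuclear factor of neuronal maturation, 1245, 760.2, 430.2 and 236 CPM, and Maf, a leucine zipper factor of interneuron fate, 1359, 844, 449 and 263 CPM. For these 3 genes each age was lower than the one before. Dlx1, a homeobox gene of forebrain GABAergic neurons, had 1705, 1311, 798 and 481 CPM. Sp8, which marks caudal interneuron precursors, had 167, 75.1, 51.8 and 45 CPM, with most of its difference between P1 and P4. Rora, a nuclear receptor, went the other way with 48.7, 30.6, 65.5 and 152 CPM.

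Of 15 expressed genes of programmed death, 1 was 2-fold or more higher than at P4 (Bcl2l2, a survival factor) and 5 lower (among them Bcl2l11, Bbc3, Apaf1 and Bax), with a median of -0.74, against 12.4% and 14.7% of all genes. Bax, which permeabilises mitochondria, had 140.0 CPM at P1, 114 (P4), 97.1 (P10) and 44 CPM in adult cells (log2 -1.38, -1.71 to -1.04). Bcl2l11, which encodes the death activator Bim, had 63.9, 28.2, 9.6 and 3.46 CPM, lower at each age, whereas Sst cells had 6.81, 3.4, 10.7 and 9.08 CPM. Of 22 activity-dependent genes listed, 10 were expressed, and of these 7 were 2-fold or more higher in Adult than at P4 and 0 lower, with a median of 2.10. From P4 to P10, 8 were higher and 0 lower, against 6.06% and 3.62% of all genes. Egr1, an immediate early factor, had 0 UMIs at P1 and 13.8 CPM (P4), 50.7 (P10) and 174 CPM in adult cells. Fos, an immediate early gene used as a sign of firing, had 1.52, 7.81, 38.4 and 68.6 CPM. The secreted neuronal proteins Vgf and Scg2 were at 44.1, 133, 465 and 799 CPM and 56.3, 209, 639 and 1072 CPM. Dissociation is known to induce early genes, and although a transcription blocker was present during dissection at all ages, the part of this induction was not tested. Arc, Npas4, Bdnf, Junb, Fosb and 7 others lay under the limit.

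Over all 9386 genes compared, P10 cells had 569 genes 2-fold or more higher and 340 lower than P4 cells (671 and 251 with median-of-ratios scaling, 1062 and 1046 with cells reduced to 2000 UMIs, and 1384 and 1436 without the expression limit, with 254 and 105 at a limit of 50 CPM). The largest increases from P4 were in Pcp4, a small calmodulin-binding protein, and its relative Pcp4l1. Pcp4l1 had 0 CPM at P1, 3 (P4), 65 (P10) and 276 CPM in adult cells (log2 4.43, 3.19 to 6.07 for P10 over P4). In glutamatergic cells Pcp4l1 stood at 0.258, 0.576, 2.63 and 16.1 CPM, so it stayed well under the Vip cells after P4. Pcp4 had 0 CPM at P1, 7.21 (P4), 155 (P10) and 139 CPM in adult cells, but glutamatergic cells held 176 CPM of it at P10. Fgf1, a growth factor, had 0, 1.2, 15.4 and 87.6 CPM, Car4, a membrane carbonic anhydrase, 1.52, 6.61, 99.8 and 68.9 CPM, and Cntnap1, an axonal adhesion protein, 0, 3, 40.3 and 155 CPM. Cpne6, Gpc3, Htr2c, Scrn3 and Nr1d1 made up the rest of the 10. The largest decreases were in Mex3a, an RNA-binding protein of proliferating and young cells, with 314, 177, 23 and 5.54 CPM, Phf21b, a chromatin reader, with 83.7, 24.6, 3.29 and 3.81 CPM, and Apod, Igfbpl1, Zbtb12, Rnf122, Calcrl, D16Ertd472e, Zfp462 and Dnah9. Calcrl, a receptor for calcitonin-related peptides, had 60.9, 33.7, 6.58 and 7.27 CPM and was at 1.14, 1.83, 3.25 and 3.73 in glutamatergic cells. Apod had 6.01 CPM at P4.

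From P10 to Adult, 488 genes were 2-fold or more higher and 676 lower (572 and 582 with median-of-ratios scaling, 982 and 1326 with cells reduced to 2000 UMIs, 1885 and 1522 without the expression limit and 161 and 315 at a limit of 50 CPM). Several of the leading increases were genes of glia. Apod, Mal and Ptgds, which oligodendrocytes and meninges are known to express, reached 48.1, 53.7 and 233 CPM in adult Vip cells, and stood at 45.6, 99.8 and 191 in adult glutamatergic cells. Ctss, a protease of microglia, was at 93.9 against 129.8, and Car2 at 129.9 against 139. These genes moved together with the summed glial markers given above, and the part of RNA from glia was not tested. Edn3, an endothelin peptide, was different, with 0, 0, 2.47 and 37.8 CPM in Vip cells and 1.98 in adult glutamatergic cells. Fam107a, an actin-associated stress gene, had 3.04, 7.81, 9.32 and 100.5 CPM, and Crebrf, a regulator of stress-related transcription, 48.7, 20.4, 17.3 and 170.1 CPM. Ano3 and Pip5k1b were the others. The largest decreases were in Mkrn3, an imprinted gene tied to puberty, with 21.3, 27, 45.8 and 0.693 CPM, Eln, which encodes elastin, with 39.6, 34.9, 130.2 and 3.12 CPM, Cdkn1c, a cell cycle inhibitor, with 89.8, 120.2, 79.5 and 3.12 CPM, and St8sia2, which adds polysialic acid to adhesion proteins, with 356, 386, 113 and 8.66 CPM. Col9a2, Igfbpl1, Tubb2b, Sla, Adamts17 and Nrep completed the 10.

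P4 and P1 differed by 2-fold or more in 995 genes higher and 601 lower, a split that became 781 and 1628 when each cell was reduced to 2000 UMIs, 1454 and 1533 without the expression limit and 330 and 157 at a limit of 50 CPM. The reduced split rests on 23 P1 and 117 P4 cells, and the part of counting error in it was not tested. The leading decreases were long or non-coding transcripts, Gm49317 with 332, 0, 0.274 and 0 CPM, Sgcz, a sarcoglycan, with 36.5, 0.601, 1.65 and 1.73 CPM, and Cmss1 with 449, 18, 13.7 and 10.7 CPM, followed by Gm21992, A230006K03Rik, Kctd16, Gm28928, Hs6st3 and Gm20754. Glutamatergic cells had the same pattern for Cmss1, with 488 CPM at P1 and 18.3 at P4. The increases were led by Nrgn, a calmodulin-binding protein of pyramidal cells, with 6.09, 500.0, 868 and 1059.6 CPM in Vip cells and 239, 1719, 5173 and 5079 in glutamatergic cells. Selenop, Crym, Gm10131, Rbms1, Itm2a, Actr3b, Nceh1 and Timp3 each rested on a single P1 UMI, for example Crym with a log2 ratio of 4.83 and an interval of 2.31 to 10.15. Selenop turned to log2 -1.34 with cells reduced to 2000 UMIs, a value that rests on very few UMIs.

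Against Sst cells of the same library (348, 810, 599 and 467 cells, GABAergic, with Lhx6, with 5 or more Sst UMIs per 10000 and under the Vip threshold), 208 genes were 2-fold or more higher in Vip cells at all 4 ages and 147 lower, which is 2.21% and 1.56% of 9432. With cells reduced to 2000 UMIs these were 137 and 66, and Sst cells were the deeper class at each age (median UMIs 30933.5, 15850.5, 24068 and 19262). The classes were defined by opposite rules, so these values describe them. Htr3a had 181 against 1.49 CPM (P1), 98.6 against 1.7 (P4), 209 against 0.219 (P10) and 403 against 0.34 CPM (Adult). Nr2e1, a nuclear receptor of neural precursors, had 181 against 2.61 CPM (P1), 161 against 1.86 (P4), 126 against 1.83 (P10) and 95.9 against 1.36 CPM (Adult). Its difference was nearly constant, with log2 ratios between 6.11 and 6.43. Asic4, a subunit related to acid-sensing channels, had 154 against 0.28 CPM (P1), 225 against 1.54 (P4), 392 against 1.68 (P10) and 198 against 3.86 CPM (Adult). Grpr, the receptor for gastrin-releasing peptide, had 146 against 0 CPM (P1), 122 against 0.648 (P4), 104 against 2.05 (P10) and 120.2 against 1.93 CPM (Adult). Gpd1, a dehydrogenase of glycerol phosphate, had 74.6 against 1.12 CPM (P1), 222 against 0.729 (P4), 307 against 1.61 (P10) and 255 against 6.24 CPM (Adult). Prox1, Sp8, Aqp5 (a water channel), Cp (ceruloplasmin) and the antisense transcript Prox1os were the rest of the 10, and reads of Prox1 and Prox1os may not be separable where they overlap.

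Among the 10 genes lowest in Vip cells against Sst cells, Nxph1, a neurexin ligand, had 18.3 against 638 CPM (P1), 7.81 against 502 (P4), 9.05 against 588 (P10) and 11.1 against 616 CPM (Adult). Satb1, a chromatin organiser needed by Sst cells, had 53.3 against 1120.1 CPM (P1), 75.7 against 1085 (P4), 55.7 against 752 (P10) and 62 against 800.0 CPM (Adult). Calb1, the calcium buffer calbindin, had 0 against 103 CPM (P1), 4.21 against 193 (P4), 10.7 against 582 (P10) and 49.2 against 1098 CPM (Adult), higher at each later age in both classes. Sox6, Unc13c, Tmem132c, Klhl14, B3gat2 and Lypd6 were also among them. Tac2 and Igf1 were above the Sst cells in every library, Tac2 with 137 against 0.84 CPM (P1), 260.2 against 15.4 (P4), 1374 against 14 (P10) and 1936 against 52.2 CPM (Adult) and Igf1 with 616 against 60.2 CPM (P1), 615 against 158 (P4), 1067 against 300.0 (P10) and 499 against 91.3 CPM (Adult). Crh was also above the Sst cells in every library, with 426 against 0.187 CPM (P1), 342 against 7.29 (P4), 498 against 60.5 (P10) and 436 against 102 CPM (Adult), and its level within Sst cells was higher at each later age. Cck reached 2250.5 against 199 CPM in Adult from near equal levels at P1 (36.5 and 34.6).

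The class closest by rule held cells with Adarb2 and no Vip or Lhx6 (351, 516, 444 and 252 cells), a group to which neurogliaform cells belong. At P1 its summed proliferation markers were at 614 CPM (4.57 in Vip cells), and in Adult at 3.52. Its markers of inhibitory cells of the olfactory bulb and lateral ganglionic eminence were at 1644 CPM at P1 (405 in Vip cells) and 256 in Adult. The class is thus mixed at P1, and the part of such cells in the differences was not tested. Against this class 59 genes were 2-fold or more higher in Vip cells at all ages and 39 lower, 0.617% and 0.408% of 9555. Without Scrublet-marked cells the split was 63 and 71, and with cells reduced to 2000 UMIs 29 and 16. Pthlh led, with 7.61 against 0.336 CPM (P1), 30 against 0.675 (P4), 78.4 against 0.804 (P10) and 132 against 0.271 CPM (Adult). Slc5a7 had 36.5 against 3.53 CPM (P1), 66.7 against 7.42 (P4), 104 against 5.36 (P10) and 124 against 4.6 CPM (Adult), and Calb2 had 350.1 against 24.3 CPM (P1), 403 against 34 (P4), 834 against 94.3 (P10) and 521 against 49.6 CPM (Adult). Elfn1, a postsynaptic protein that sets facilitating input onto interneurons, had 589 against 70.2 CPM (P1), 603 against 89.3 (P4), 559 against 41.9 (P10) and 269 against 37.9 CPM (Adult). Crh had 426 against 45.2 CPM (P1), 342 against 58.9 (P4), 498 against 48.5 (P10) and 436 against 19.2 CPM (Adult). In the cells without Vip the Pthlh values rested on 2, 3, 6 and 1 UMIs, so its adult ratio of log2 8.93 has a counting interval of 6.45 to 14.24, which overlaps those of the other ages. For all 5 genes the Vip cells were higher at each age. Grpr, Aqp5, Cp, Gss (glutathione synthetase) and Shisa6 (an AMPA receptor partner) followed. Lowest in Vip cells were Ndnf, a secreted marker of neurogliaform cells, with 3.04 against 42.6 CPM (P1), 5.41 against 169 (P4), 2.19 against 593 (P10) and 8.31 against 195 CPM (Adult), and Reln, with 79.2 against 495 CPM (P1), 76.9 against 1319 (P4), 139 against 2070.3 (P10) and 126 against 474 CPM (Adult). Ptprm, Cdca7, Nxph1, Rimbp2, Fbxo32, Tox3, Sp9 and Bcl11b were the others, of which Cdca7 had 0 UMIs in Vip cells at P1 and P4. The differences with both classes are drawn in the plot of Vip cells against other cells.

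**Figure D5:**
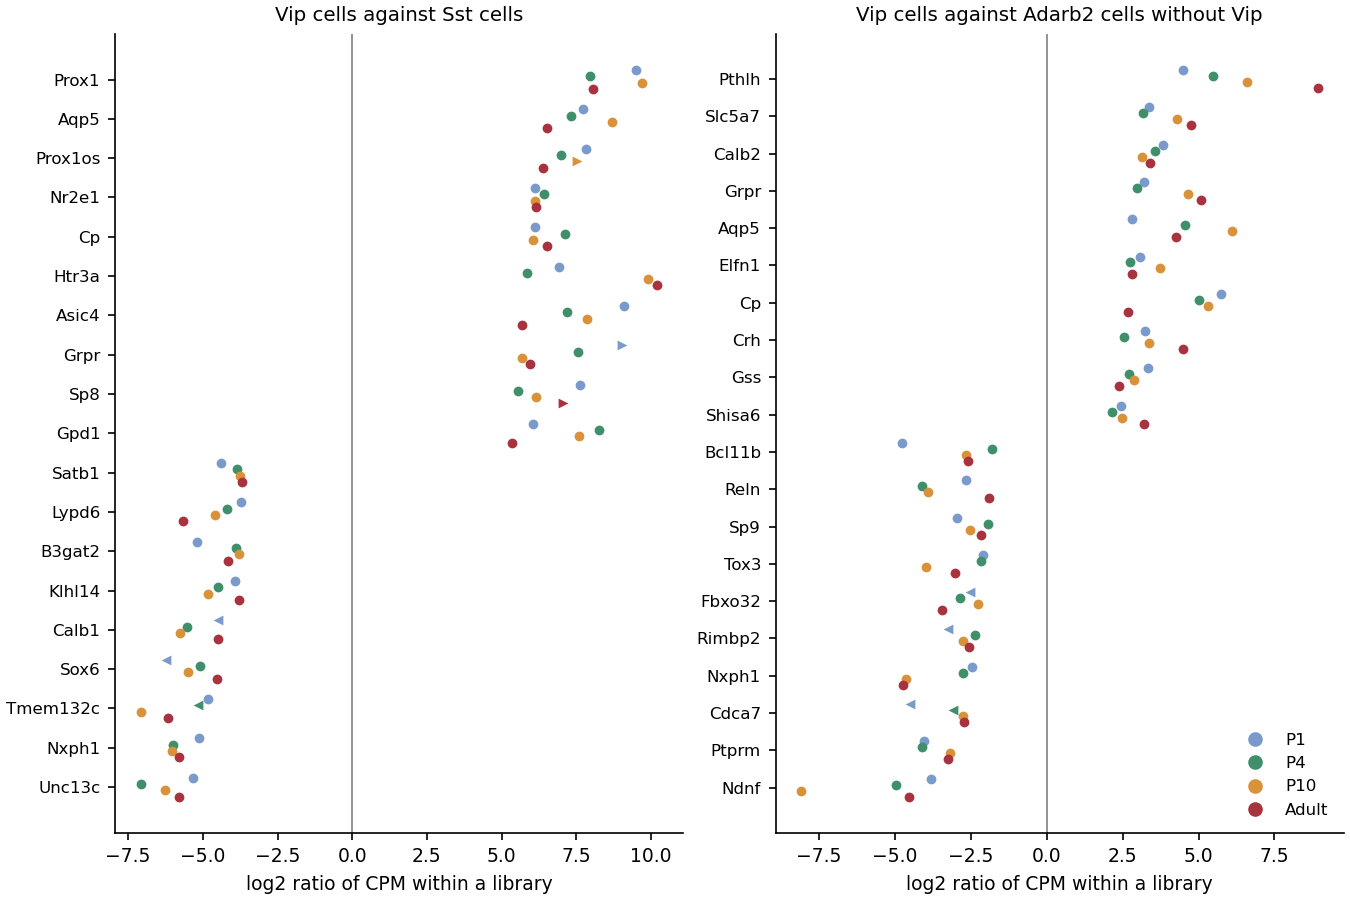
Log2 ratio of CPM in Vip cells over Sst cells (left) and over Adarb2 cells without Vip (right) within each library, coloured by age, for the genes furthest above and furthest below 0, with triangles where 1 class had 0 UMIs and the value is a bound from 3 UMIs. Prox1 lies at or beyond log2 7.96 at all 4 ages on the left, and Pthlh lies to the right of 0 at all 4 ages on the right.

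The lists were also followed in the other neurons of the same libraries, over the genes that passed the expression limit in Vip cells, so that a gene high in adult Vip cells entered more readily. Between P4 and Adult the peptide list had 7 genes higher and 1 lower (median 2.14) in Vip cells, with 5 higher and 4 lower (median -0.44) in Adarb2 cells without Vip, 5 and 2 (0.90) in Sst cells and 6 and 3 (1.83) in glutamatergic cells. Npy was lower in Vip cells at each age, with 3.04 against 13.3 CPM (P1), 98 against 149.5 (P4), 85.6 against 1049 (P10) and 295 against 8202 CPM (Adult) for Vip cells against those without Vip. Cck was similar in both by Adult, at 2250.5 and 2007 CPM, after being lower in Vip cells at P1 and P4 (134 against 416 at P4). Modulator receptors gave 9 and 0 (1.40) in Vip cells, and 6 higher and 0 lower (median 0.68) in Adarb2 cells without Vip, 3 and 1 (0.38) in Sst cells and 6 and 0 (0.54) in glutamatergic cells. Apoptosis genes gave 1 and 5 (-0.74), and 1 higher and 6 lower (median -0.89) in Adarb2 cells without Vip, 2 and 5 (-0.40) in Sst cells and 1 and 7 (-0.95) in glutamatergic cells. Activity genes gave 7 and 0 (2.10), and 7 higher and 0 lower (median 1.55) in Adarb2 cells without Vip, 7 and 1 (1.77) in Sst cells and 9 and 0 (2.62) in glutamatergic cells. Over all genes the shares higher and lower were 12.4% and 14.7% in Vip cells, 12.1% and 16.8% in Adarb2 cells without Vip, 10.8% and 15.4% in Sst cells and 13.7% and 16% in glutamatergic cells. These are counts on single libraries and the differences between classes were not tested.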

How the data were processed

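Single cells of mouse prefrontal cortex were captured with the BD Rhapsody system, which counts the 3′ ends of polyadenylated RNA. The authors aligned the reads to GRCm38 with GENCODE M19 and deposited UMI counts for each gene and cell, 1 table per library, and the file headers name version 1.11 of the BD pipeline for P1 and 1.8 for P4, P10 and Adult, whereas the methods name 1.11 for all. No further normalization was applied to the deposited counts, and all 63394 barcodes in them entered the filter. In the P1 header the library is called P0 and intronic reads are kept.

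From these counts, cells were filtered, and Vip cells and the other classes chosen, by the thresholds given with the results. Sst cells were GABAergic cells with Lhx6, with Sst at 5 or more UMIs per 10000 and with Vip under 2 per 10000, glutamatergic cells had Slc17a7, Slc17a6, Neurod6 and Neurod2 summing to 3 or more per 10000 without Gad1 or Gad2, and microglia had C1qa, C1qb, C1qc, Csf1r and Cx3cr1 summing to 10 or more. UMIs were summed over the cells of a class in a library and divided by its total without mitochondrial and ribosomal protein genes (CPM). Genes had to be listed in all 4 libraries and reach a mean of 10 CPM over the groups compared. A ratio of 2-fold or more was counted as a difference by size, with no test, since each age was 1 library. Levels carry exact Poisson intervals, ratios exact conditional binomial intervals and shares Clopper-Pearson intervals, all at 95% and for counting error only. A class at 0 UMIs was set to 3 UMIs, which makes the ratio a bound. Scrublet (in scanpy 1.11.5, expected rate 0.06) marked doublets within each library, and marked cells were kept. Python 3.11.15, numpy 2.4.6, scipy 1.17.1, pandas 2.3.3 and matplotlib 3.10.9 were used. The ratio and its interval were tested on counts simulated at the depths of the P4 and P10 Vip cells. The other steps and the P1 depth were not simulated. Gene positions came from GENCODE M21 and upstream sequences from RefSeq (GRCm38.p6).

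The members and the gene lists were chosen with earlier results of these data known. The genes named are those of the lists (counts, median and examples), the 10 largest differences in each direction for each step between ages outside the lists of other cell types, and the 10 genes furthest above and below each compared class by the smallest ratio over libraries that share a direction. A few list genes were added as examples after their values were seen, and the values of some genes named by these rules are not reported here. The alternatives tried were other cell filters, Vip thresholds, expression limits and scalings, removal of Scrublet-marked cells, reduction of each cell to 2000 UMIs, and removal of cells with many markers of other types.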

Additional observations from a re-analysis of the deposited data

Results flagged for a closer look

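Genes of the Y chromosome summed to 68.5 CPM (95% counting interval 50 to 91.7, 45 UMIs) in the P1 Vip cells, against 0 at P4, 0.274 CPM at P10 and 0 in Adult. The other classes of the P1 library had more, with 147 CPM in Sst cells, 153 in Adarb2 cells without Vip, 114 in glutamatergic cells and 148 in microglia, and none of them passed 0.271 CPM at a later age, so the signal is one of the whole library. It stands out because the methods give all animals as female. No result between ages rests on these genes themselves. The libraries still differ in them, so this difference, age and processing cannot be told apart wherever P1 is compared with a later age. The number of P1 animals or cells behind the Y-linked UMIs was not tested.

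Bcl2l11, which encodes the death activator Bim, was lower at P10 than at P4 in Vip cells (28.2 and 9.60 CPM, log2 -1.56) and higher in Sst cells of the same libraries (3.40 and 10.7 CPM, log2 1.65). The ratios differed by -3.21 on the log2 scale, and this difference was not tested, because each age was 1 library. The gene came from a search of the list genes for 2-fold differences in opposite directions. It covered P4 to P10 and P10 to Adult, against Sst cells and against Adarb2 cells without Vip. Bcl2l11 was picked against Sst cells only, so the contrast is not shown for the class closest by rule.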

How the results depend on the processing

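No paired analysis was possible because each age is 1 library and the labels give every library the same replicate number. Leaving out a replicate was impossible for the same reason. The order of the shares of Vip cells, P1 below P4 and P4 below both P10 and Adult, was the same under all 5 alternatives that gave a value, while P10 and Adult changed places without Scrublet-marked cells (8.61 and 8.29%). With a threshold of 5 Vip UMIs per 10000 the share was 0.979% at P1 and 4.28% at P4. With cells reduced to 2000 UMIs it was 1.54, 4.14, 5.80 and 6.10% from P1 to Adult. The classes were chosen again on the reduced counts there, which gave 23, 117, 163 and 168 Vip cells. The same held for gene ratios and numbers of genes past 2-fold given with reduced counts. Only the shares of cells with a UMI of a gene kept all members. Without cells holding 20 or more UMIs per 10000 of other types' markers, a limit chosen after seeing the data, it was 10.7% at P10 and 15% in Adult, and with the stricter cell filter 10.9% in Adult. A limit of 1 such UMI per 10000 left too few cells to give values.

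Counts reduced to 2000 UMIs per cell carry more counting error of their own, so a change there cannot be put down to depth alone. The number of genes past 2-fold moved with reduced counts and with the expression limit. For P4 over P1 it was 1596, with 2409 after reduction to 2000 UMIs, 487 at a limit of 50 CPM and 2987 without a limit. For P10 over P4 it was 909, with 2108 (1062 higher and 1046 lower), 359 and 2820 (1384 and 1436), and for Adult over P10 1164, with 2308, 476 and 3407. Against Sst cells 355 genes became 203 after reduction, against Adarb2 cells without Vip 98 became 45, and the Calb2 comparison went from 35 to 53 with members chosen on reduced counts. Its split of 20 higher and 15 lower became 20 and 33 there, 20 and 22 without Scrublet-marked cells and 19 and 26 without cells high in other types' markers. The split against Adarb2 cells without Vip, 59 and 39, became 63 and 71 without Scrublet-marked cells. Median-of-ratios scaling moved all genes by 0.158 on the log2 scale for Adult over P4 and gave 671 genes higher and 251 lower for P10 over P4, in place of 569 and 340. For Adult over P10 it gave 572 and 582, and no expression limit 1885 and 1522, in place of 488 and 676. For P4 over P1 the reduced counts gave 781 higher and 1628 lower, in place of 995 and 601. List medians stayed within a fixed tolerance of the main value, less than 2-fold, in at least 55 of 56 values under each alternative for which they were computed. The tolerance was wider than some of the medians themselves, so a small median could change sign and still be counted as kept. List medians were not computed without the expression limit. For single genes, 199 of 350 ratios left the counting interval of the main result with reduced counts, and 75 of 388 with members chosen on reduced counts. The numbers were 72 of 387 without Scrublet-marked cells and none with the stricter cell filter. The counting error of the alternative itself was not included, so with fewer UMIs a ratio could leave the interval through counting error alone. The median of the activity genes for P4 over P1 turned to -0.55 with reduced counts. For P4 over P1 with reduced counts, Selenop (-1.34), Pthlh (-1.34), Gabra5 (-0.077), Chrm1 (-0.34) and Cdh8 (1.57) also changed sign, as did Draxin for Adult over P10 (1.54). For P4 over P1, Grp (-0.48) turned with the higher Vip threshold, Pcdh11x (0.025) with members chosen on reduced counts and Sv2b (-0.63) without Scrublet-marked cells. The causes were not tested. With 40 cells at P1, levels under 4.57 CPM there rest on fewer than 3 UMIs.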
